A study of Mus musculus with 1049 samples.

Results

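A set of 10 genes for adhesive and matricellular glycoproteins was followed across single dermal fibroblasts of mice of 3 ages, newborn, young and old. The genes were chosen by name as Fn1, Postn, Tnc, Tnxb, Thbs1, Thbs2, Vcan, Egfl6, Spp1 and Nid1, and all 10 of 10 were found among the 51777 genes common to the tables and were among the 16684 genes tested. The cells came from skin of C57Bl/6 mice aged 1.5 or 2.5 days (newborn), 2 months (young) and 18 months (old), with no genetic change or treatment named in the labels; the newborn donors are called female littermates, and the labels tie no cell to a mouse. Fibroblasts were sorted after staining for CD34, Pdgfra and markers of other lineages, and single cells were sequenced with Smart-seq2, a full-length method without molecular identifiers, on plates that each held all 3 ages. After filtering, 735 of 861 wells were kept, with 158 and 91 newborn, 142 and 104 young and 126 and 114 old cells in experiments 1 and 2.

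Reads of the kept cells of each age in each experiment were added, so that each age had n = 2 sums; the 6 sums held 119682449 to 195324769 reads. Levels are CPM, read counts relative to the library total, scaled by TMM factors unless said otherwise, and tests used edgeR's quasi-likelihood fit, with p-values adjusted by Benjamini-Hochberg over all genes tested and a threshold of 0.05. Nothing in the labels says which mice or how many the experiments used, so a p-value measures only the spread between 2 experiments. The fibroblast marker list summed to 43190 to 164200 CPM in the 6 sums, against 0 to 1.00 CPM for the immune list, 0 to 170.1 CPM for the macrophage list and 4.62 to 98.8 CPM for the pericyte and smooth muscle list.

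Adhesive glycoproteins of the matrix bind cells and other matrix proteins. Fibronectin forms fibrils that integrins pull on, nidogen joins laminin to type IV collagen in basement membranes, and versican binds hyaluronan. Matricellular proteins (periostin, tenascins, thrombospondins, osteopontin) are known for high expression in growing or wounded tissue and for modulating adhesion and growth factor activity. Tenascin-X is the exception among the tenascins, being a component of mature connective tissue that helps to order collagen fibrils.

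The sequences just before the start of 4 of the genes are shown because Egfl6, Tnc and Postn had their highest levels in newborn cells and Tnxb had its lowest there. RefSeq's promoter table (GRCm38.p6) held 8 of the 10 genes, and for genes with more than 1 entry the start nearest the annotated gene start was taken. Each run is the 250 bases before the start, 5′ to 3′ on the gene's strand. Capitals mark matches, on either strand, to 5 short motifs. The TATA box was searched as TATAAA and the CCAAT box by the letters of its name. The GC box, which Sp1-type factors bind, was searched as GGGCGG. The motif of the AP-1 factors was searched as TGANTCA, and that of the TEAD factors as GGAATG. Coordinates are chr3:54360857-54361106 (plus strand) for Postn, chr4:64047016-64047265 (minus) for Tnc, chrX:166585717-166585966 (minus) for Egfl6 and chr17:34670285-34670534 (plus) for Tnxb.
Egfl6: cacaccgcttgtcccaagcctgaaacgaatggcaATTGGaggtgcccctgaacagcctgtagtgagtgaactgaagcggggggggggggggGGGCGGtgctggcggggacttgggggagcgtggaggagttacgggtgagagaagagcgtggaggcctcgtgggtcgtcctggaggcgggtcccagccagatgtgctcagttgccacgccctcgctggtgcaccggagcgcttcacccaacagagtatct
Tnc: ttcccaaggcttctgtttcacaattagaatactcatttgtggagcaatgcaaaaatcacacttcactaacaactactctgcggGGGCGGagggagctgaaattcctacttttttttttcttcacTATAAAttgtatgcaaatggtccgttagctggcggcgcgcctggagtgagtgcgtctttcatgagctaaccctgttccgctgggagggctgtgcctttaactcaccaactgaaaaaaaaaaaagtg
Postn: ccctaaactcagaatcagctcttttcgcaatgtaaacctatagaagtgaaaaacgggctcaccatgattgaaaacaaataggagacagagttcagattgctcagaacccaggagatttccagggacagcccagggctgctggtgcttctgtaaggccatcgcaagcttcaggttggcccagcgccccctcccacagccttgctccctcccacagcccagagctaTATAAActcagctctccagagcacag
Tnxb: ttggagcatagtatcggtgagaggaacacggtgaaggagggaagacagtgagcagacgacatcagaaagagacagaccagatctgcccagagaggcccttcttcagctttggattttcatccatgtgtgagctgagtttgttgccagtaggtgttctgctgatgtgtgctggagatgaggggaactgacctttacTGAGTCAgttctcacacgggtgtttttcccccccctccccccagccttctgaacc
The Postn window held a TATA box starting 26 bases before the start and the Tnc window one at 126 bases, with a GC box at 167 bases. Egfl6 had a GC box at 159 bases and a CCAAT box at 216 bases. The Tnxb window held the only AP-1 match among the 8 genes, at 55 bases. Of 32851 RefSeq windows of the same length, 12.4% held the TATA box, 33.8% the CCAAT box, 32.7% the GC box, 6.75% the AP-1 motif and 12.6% the TEAD motif. These matches are letters in a window, and no binding was measured.

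**Figure D1:**
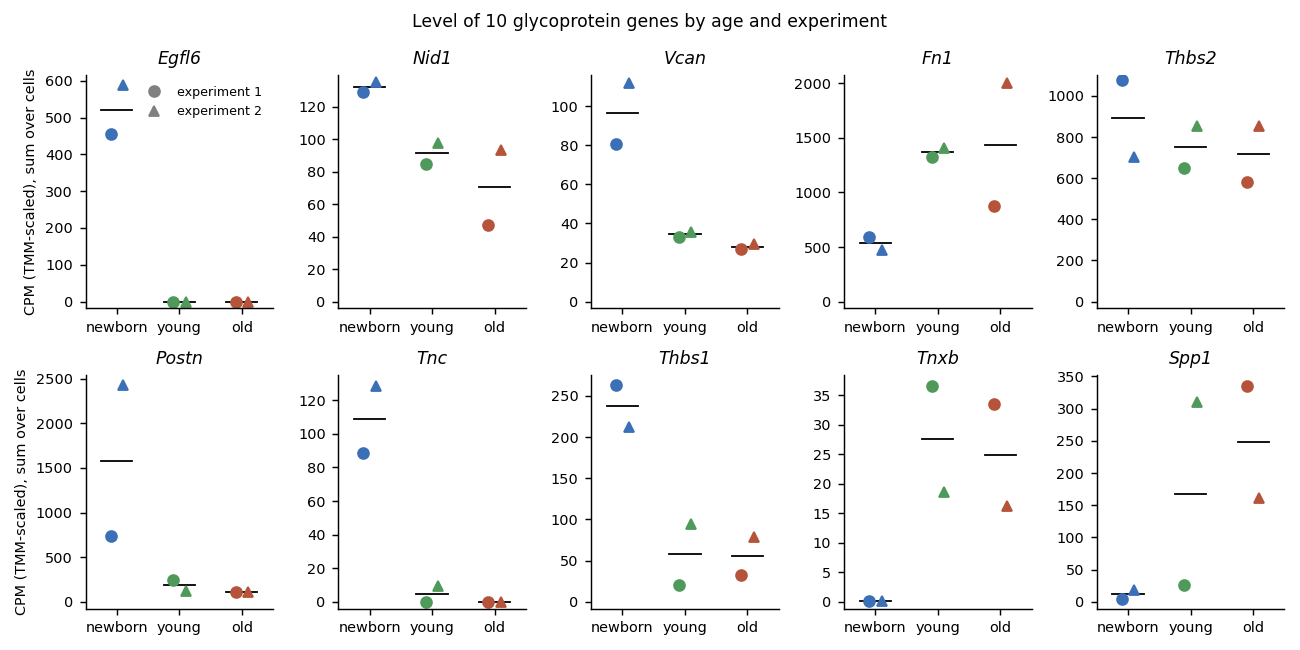
TMM-scaled CPM (vertical axis, linear) of each gene in the 6 sums, by age; circles are experiment 1, triangles experiment 2 and bars the mean of the 2 sums. Egfl6, Tnc, Postn, Thbs1, Vcan and Nid1 have both newborn sums above all 4 adult sums, and Tnxb, Fn1 and Spp1 have both newborn sums below them.

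Compared with newborn cells, young cells had 1 member called higher, Tnxb, and 1 called lower, Egfl6. Among all genes tested, 0.779% were called in that comparison, 0.719% higher and 0.0599% lower. The same 2 genes were called in old against newborn cells, where 0.935% of all genes tested were called, 0.797% higher and 0.138% lower. Both comparisons use the same newborn sums. With the experiment, which is the labelled batch, as a block, 0 members and 25 genes in all were called in young against newborn cells, and 0 members and 51 genes in old against newborn cells. The 2 sums of each age did not overlap for 9 of 10 members in either comparison with newborn cells (3 higher, 6 lower), beside 47.2% of all genes tested in young against newborn and 47.3% in old against newborn cells. In old against young cells they did not overlap for 2 members, beside 30.9% of all genes, so a gap between sums is common here and no test. The median log2 fold change of the 10 genes was -1.01 in young against newborn cells and -1.35 in old against newborn cells, beside -0.07 and -0.08 over all genes tested. The members were chosen with earlier results of these data known, so this shift is no test of the set. Between old and young cells edgeR called 0 members and 0 genes in all (0.0%), with 0 members and 810 genes at an unadjusted p under 0.05, while DESeq2 called 1 member (Tnc) and 1047 genes.

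Egfl6 encodes a secreted protein with EGF repeats that binds integrins and lies on chromosome X (166523007 to 166585720, minus strand, GRCm38). Its level was 455 and 587 CPM in the newborn sums, 0 and 0.03 CPM in the young sums and 0 and 0 CPM in the old sums. The newborn sums held 93904 and 83652 reads, and the 4 reads of the young sums lay in 2 cells of experiment 2, so adult and newborn sums lay far apart. Egfl6 fell by 15.08 on the log2 scale in young against newborn cells (SE 1.23, adjusted p = 0.040, or 0.136 with the experiment as a block). It was also lower in old against newborn cells (adjusted p = 0.034, or 0.115 with the block). The newborn mean was 56838 times a floor of 3 reads over both old sums. Newborn cells with an Egfl6 read had a median of 1013 CPM, unscaled. A single old cell at that level would exceed the floor, which thus sets no lower limit on the fold. After thinning every cell to 100000 reads, 38.0% and 62.6% of the newborn cells had a read, against 0 of 246 young and 0 of 240 old cells, which allows shares of up to 1.22% and 1.25% (3 cells, counting error only; the two-sided 95% Clopper-Pearson limits are 1.49% and 1.53%). Its reads were spread over newborn cells, the top cell holding 5.59% and 9.55% of them.

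Tnc, for tenascin-C, a hexameric protein of developing and healing tissue, lies on chromosome 4 (63959785 to 64047015, minus strand). It stood at 88.6 and 129 CPM in the newborn sums, 0 and 9.36 CPM in the young sums and 0 and 0 CPM in the old sums. A single young cell held 99.8% of the 1250 young reads. The change in young against newborn cells did not pass the test (log2 fold change -4.54, SE 2.88, adjusted p = 0.609), nor did that in old against newborn cells (adjusted p = 0.251). The newborn mean of Tnc was 11850 times the floor of 3 reads over both old sums, which again sets no lower limit on the fold. With each sum's cell with most Tnc reads left out, a setting chosen after seeing the data, the log2 fold change in young against newborn cells became -13.55 (adjusted p = 0.0624). That setting drops the cell with 99.8% of the young reads, so a larger fall was built in and is no further evidence. Tnc was read in 22.2% and 23.1% of the newborn cells after thinning, against 0.41% of the young cells and 0 of 240 old cells.

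Postn encodes periostin, which binds integrins and type I collagen, and lies on chromosome 3 (54361109 to 54391037, plus strand). It had 739 and 2427 CPM in the newborn sums, 245 and 127 CPM in the young sums and 109 and 110 CPM in the old sums. All adult sums lay below both newborn sums, and the newborn sum of experiment 2 was the higher of its pair. In young against newborn cells the log2 fold change was -3.09 (SE 0.68, adjusted p = 0.177), and in old against newborn cells -3.85 (SE 0.70, adjusted p = 0.114). The share of cells with a Postn read was 39.2% and 65.9% in the newborn cells, 9.86% and 6.73% in the young cells and 5.56% and 5.26% in the old cells. Adult reads came from few cells: the top cell held 18.5% and 72.6% of the reads of the young sums and 65.4% and 45.2% of those of the old sums, against 5.99% and 11.8% in the newborn sums. Among cells with a read the median was 1611 and 1874 CPM in the newborn, 1278 and 447 CPM in the young and 743 and 1516 CPM in the old sums, unscaled.

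Vcan encodes versican, a large chondroitin sulfate proteoglycan, and lies on chromosome 13 (89655312 to 89742509, minus strand). Its levels were 80.8 and 112 CPM in the newborn, 33.3 and 35.4 CPM in the young and 26.8 and 29.2 CPM in the old sums. Each age's pair of sums lay apart from the others', but no difference passed (young against newborn -1.49, SE 0.33, adjusted p = 0.178; old against newborn -1.78, SE 0.34, adjusted p = 0.117). Cells with a read made up 23.4% and 28.6% of the newborn, 4.93% and 10.6% of the young and 4.76% and 2.63% of the old cells. In the second old sum 1 cell held 74.6% of the Vcan reads. An antisense gene, Gm4117, overlaps Vcan, and since the strand setting of the counting is not given in the sources used here, its reads cannot be told apart from Vcan's with certainty.

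Thrombospondins are secreted glycoproteins that bind CD47 and CD36. Thbs1, known for activating latent TGF-beta, lies on chromosome 2 (118111876 to 118127133, plus strand). It had 263 and 213 CPM in the newborn, 20.8 and 95.0 CPM in the young and 32.8 and 79.2 CPM in the old sums. Adult sums lay below newborn sums, and the adult sums of experiment 1 lay below those of experiment 2. Few cells carried the adult sums: the top cell held 86.7% and 43.6% of the young and 29.05% and 43.5% of the old reads, against 11.9% and 15.4% in the newborn sums. Neither comparison with newborn cells passed (-2.04, SE 0.83, adjusted p = 0.400 for young; -2.09, SE 0.84, adjusted p = 0.340 for old). Shares of cells with a read were 29.7% and 29.7% in the newborn, 2.82% and 11.5% in the young and 4.76% and 6.14% in the old cells.

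Thbs2, whose loss in mice alters collagen fibrils of the skin, lies on chromosome 17 (14665500 to 14694235, minus strand). Its summed levels overlapped between ages, at 1079 and 704.9 CPM in the newborn, 651 and 853 CPM in the young and 580 and 855 CPM in the old sums (young against newborn -0.25, SE 0.33, adjusted p = 0.868). The share of cells with a read was 47.5% and 44.0% in the newborn, 52.1% and 70.2% in the young and 49.2% and 64.0% in the old cells. Among cells with a read the median was 2646 and 1496 CPM in the newborn, 593 and 1019 CPM in the young and 883 and 1009 CPM in the old sums, unscaled, so all adult sums lay below both newborn sums. The 95% intervals of the shares overlapped between all ages in experiment 1, while in experiment 2 that of young cells (60.4% to 78.8%) lay above that of newborn cells (33.6% to 54.8%). These intervals cover counting error only, and the shares were not tested over sums.

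**Figure D2:**
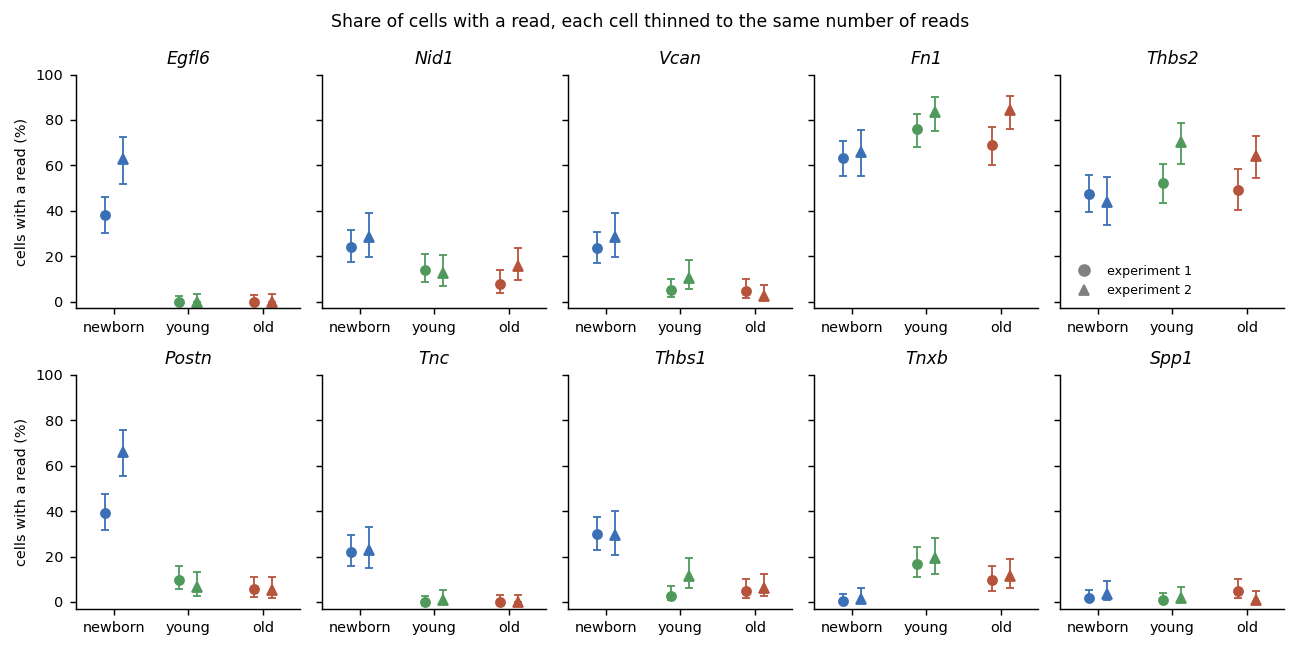
Share of cells with at least 1 read (vertical axis, %) after each cell was thinned to 100000 reads, by age and experiment, with 95% Clopper-Pearson intervals that cover counting error only. Egfl6 and Tnc are at or near 0 in adult cells, and Fn1 is read in 63.3% to 84.2% of cells at every age.

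Fn1, for fibronectin, was read in more cells of each age than any other member and lies on chromosome 1 (71585520 to 71653200, minus strand). It had 591 and 475 CPM in the newborn, 1322 and 1411 CPM in the young and 874 and 2003 CPM in the old sums. Both young and both old sums lay above the newborn sums, by log2 fold changes of 1.36 (SE 0.42, adjusted p = 0.270) and 1.43 (SE 0.43, adjusted p = 0.224) that did not pass. The 2 old sums bracketed the young ones. Plate by plate, in unscaled CPM, old cells had less Fn1 than young cells on 5 of 5 plates of experiment 1 and more on 3 of 4 plates of experiment 2. The share of cells with a read was 63.3% and 65.9% in the newborn, 76.1% and 83.7% in the young and 69.0% and 84.2% in the old cells, and the median among cells with a read was 637 CPM in the newborn, 1208 CPM in the young and 1232 CPM in the old cells, unscaled.

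Tnxb, for tenascin-X, lies on chromosome 17 (34670535 to 34719815, plus strand) and had its lowest levels in newborn cells. It had 0.09 and 0.11 CPM in the newborn sums (18 and 16 reads), 36.7 and 18.6 CPM in the young sums and 33.5 and 16.2 CPM in the old sums. All adult sums lay far above the newborn sums, and both adult sums of experiment 1 lay above those of experiment 2. Tnxb rose 277-fold in young against newborn cells (log2 fold change 8.10, SE 0.97, adjusted p = 0.046) and 249-fold in old against newborn cells (7.95, SE 0.96, adjusted p = 0.041). With the experiment as a block the adjusted p was 0.115 in young against newborn and 0.107 in old against newborn cells. Without each sum's cell with most Tnxb reads the log2 fold change was 9.45 (SE 1.40, adjusted p = 0.0818) in young against newborn and 9.001 (SE 1.38, adjusted p = 0.0796) in old against newborn cells. The cells left out held 44.4% and 87.5% of the 18 and 16 newborn reads, so the larger values rest on very few newborn reads. They also held 15.5% and 22.5% of the young and 29.9% and 41.3% of the old reads. A read was found in 16.9% and 19.2% of the young and 9.52% and 11.4% of the old cells after thinning, against 0.63% and 1.10% of the newborn cells, or 2 of 249. Tnxb is partly copied in the pseudogene Tnxa, so the split of reads between the pair depends on the authors' counting.

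Neither call, Egfl6 or Tnxb, passed with any 1 of the 6 sums left out. Such a fit has 2 residual degrees of freedom and takes the lone sum of an age to vary like the sums of the other ages. It gave adjusted p-values of 0.0963 to 0.156 for Egfl6 and 0.134 to 0.221 for Tnxb in young against newborn cells, and 0.0511 to 0.161 for Egfl6 and 0.113 to 0.207 for Tnxb in old against newborn cells. The log2 fold change of Tnxb was 7.53 to 8.52 in young against newborn and 7.35 to 8.38 in old against newborn cells in these fits, and that of Egfl6 in young against newborn cells was -14.05 or further below 0. A test that weights cells equally called more members, and also more genes in all. Of the 16684 genes tested, limma called 329 higher and 763 lower in young than in newborn cells, where edgeR called 120 and 10. For old against newborn cells limma called 289 higher and 1125 lower, where edgeR called 133 and 23. On the mean log2(CPM + 1) per cell, limma called Egfl6, Tnc, Postn, Thbs1 and Vcan lower and Tnxb higher in young than in newborn cells (adjusted p = 0.00172 to 0.0172) and in old than in newborn cells (adjusted p = 0.00121 to 0.047). On that scale the log2 difference was -4.87 for Postn, -2.09 for Thbs1, -1.85 for Tnc and -1.38 for Vcan in young against newborn cells. Thbs2 changed sign there, to 0.99 in young against newborn and 0.66 in old against newborn cells, neither of which passed.

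The plates, which each held cells of all 3 ages, gave 1 direction for most of these genes in unscaled CPM. TMM factors were 1.20 and 1.19 in the newborn sums and 0.88 to 0.95 in the adult sums, so scaling lowers newborn levels relative to adult ones. Plates with close values could turn with scaling, such as 1 plate with 68.2 CPM of Vcan in newborn and 61.8 CPM in young cells. Egfl6, Tnc, Postn, Thbs1 and Vcan were lower in young than in newborn cells on 9 of 9 plates, and lower in old than in newborn cells on 9 of 9 plates. Tnxb was higher in young cells on 9 of 9 plates and in old cells on 8 of 9. Fn1 was higher in young cells on 8 of 9 plates and in old cells on 7 of 9. Thbs2 was lower in young cells on 8 of 9 plates and in old cells on 8 of 9, and Nid1 was lower in young cells on 7 of 9 and in old cells on 8 of 9. In the TMM-scaled sums of experiment 2, however, Thbs2 was higher in young (853 CPM) and old (855 CPM) than in newborn cells (704.9 CPM). Spp1 was higher in young cells on 3 plates and lower on 5, and higher in old cells on 4 plates and lower on 3. Plates of an experiment may share mice, so they are no independent replicates. Between old and young cells no member kept 1 direction on all 9 plates, and Tnxb split 5 to 4.

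**Figure D3:**
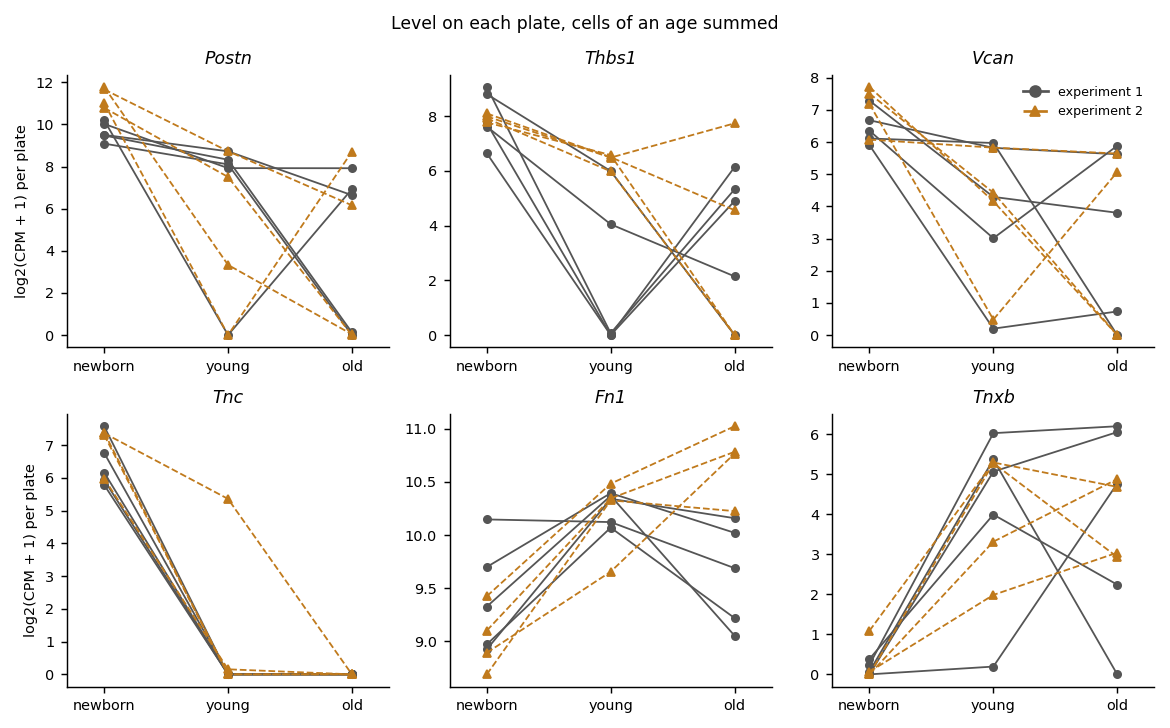
Level of 6 members on each of 9 plates as log2(CPM + 1), unscaled (vertical axis), with cells of an age on a plate summed; lines join the ages of a plate, solid grey with circles for experiment 1 and dashed orange with triangles for experiment 2. Lines of Postn, Thbs1, Vcan and Tnc all go down between newborn and young, lines of Tnxb all go up, and the Fn1 lines between young and old go down on 5 of 5 plates of experiment 1 and up on 3 of 4 of experiment 2.

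Spp1 and Nid1 complete the set. Nid1, on chromosome 13 (13437551 to 13512269, plus strand), had 129 and 135 CPM in the newborn, 84.5 and 98.0 CPM in the young and 47.1 and 93.6 CPM in the old sums. Adult sums lay below newborn sums, by a log2 fold change of -0.53 in the young (SE 0.39, adjusted p = 0.655) and -0.91 in the old cells (SE 0.39, adjusted p = 0.370). Shares of cells with a Nid1 read were 24.1% and 28.6% in the newborn, 14.1% and 12.5% in the young and 7.94% and 15.8% in the old cells. Per kilobase of exon, the members with the highest mean level in newborn sums were Egfl6 (193 CPM per kb), Postn (182 CPM per kb) and Thbs2 (127 CPM per kb). In young sums they were Fn1 (117 CPM per kb), Thbs2 (107 CPM per kb) and Spp1 (102 CPM per kb), and in old sums Spp1 (151 CPM per kb), Fn1 (123 CPM per kb) and Thbs2 (102 CPM per kb). Within each of these adult trios the 2 sums of an age overlapped between Spp1 and the other genes.

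Spp1, for osteopontin, an integrin-binding phosphoprotein, lies on chromosome 5 (104435118 to 104441050, plus strand). Its levels were 4.82 and 18.8 CPM in the newborn, 26.2 and 310 CPM in the young and 336 and 161 CPM in the old sums. Adult sums lay above newborn sums but ranged widely, and neither comparison passed (young against newborn 3.83, SE 1.39, adjusted p = 0.339; old against newborn 4.40, SE 1.43, adjusted p = 0.249). Without any 1 sum the value in young against newborn cells ran between 1.15 and 5.13, and on the mean log2(CPM + 1) per cell it was -0.088. The adult level came from 10 of 486 cells, 1 and 2 young and 6 and 1 old cells in experiments 1 and 2, on 6 plates, each with 844 to 15193 CPM. The other 476 adult cells had 0 Spp1 reads. In newborn skin 7 of 249 cells had a read, with a median of 590 CPM and at most 2474 CPM.

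The 10 adult Spp1 cells shared other features, read here as a description of cells picked by Spp1 after the values were seen. Apod, which encodes the lipid-binding apolipoprotein D, was above 50000 CPM in 9 of the 10, and only 10 of all 486 adult cells reached that level. Its median was 85917 CPM in the Spp1 cells, against 421 CPM in the other adult cells. Fn1 was read in 2 of the 10, against 80.9% of the other adult cells. Steap4, Mgp, Myoc, Cdh19, Ly6a and Dpt were picked because their differences in share of cells were among the largest over all genes. Large gaps are thus built in for them. Steap4, Mgp and Myoc were each read in 9 of 10 Spp1 cells but in 1.89%, 1.89% and 2.52% of the others, and Cdh19 in 7 of 10 but in 0.21% of the others. Ly6a, which encodes Sca1, and Dpt, for dermatopontin, were each read in 1 of 10 Spp1 cells, against 98.9% and 79.6% of the others. Dcn, for decorin, was high in these cells (median 119503 CPM, lowest 49626 CPM), beside a median of 100339 CPM in the others, and their median number of genes was 1876.5, beside 2068.5. Col1a1, also of the fibroblast list, had a median of 638 CPM in the Spp1 cells, and no median was taken in the others. The adult sums, scaled and no median over cells, held 1539 to 18052 CPM of Col1a1. Reads of Csf1r and Acta2, markers of myeloid and mural cells, were found in 0 of the 10. Sox10, Ptprc, Rgs5, Lyz2 and Pecam1 were also at 0 there, but the first 3 had 0 reads in all 6 sums and the other two had reads in 1 of 4 adult sums, so their zeros say little about these cells. The 7 newborn cells with Spp1 had at most 3.34 CPM of Apod. A gene of uncertain status on the same strand, Gm42793, overlaps Spp1.

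**Figure D4:**
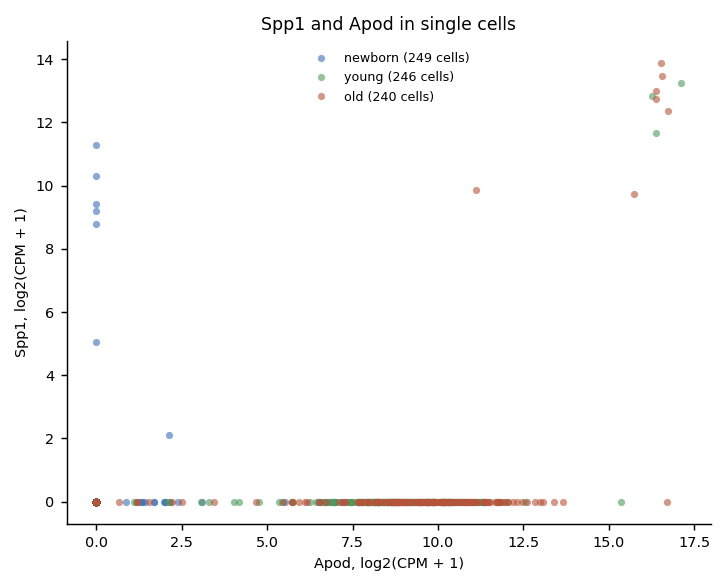
Spp1 (vertical axis) against Apod (horizontal axis) in each of 735 cells, both as log2(CPM + 1), unscaled, coloured by age. Of the 10 adult cells with an Spp1 read, 9 lie at the far right with Apod above 50000 CPM, and the 7 newborn cells with Spp1 lie at the left.

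After thinning, the median cell had a read of 3 and 4 of the 10 members in newborn sums, 2 and 2 in the young sums and 1.5 and 2 in the old sums. Cells with 4 or more members made up 35.4% and 57.1% of the newborn, 5.63% and 10.6% of the young and 3.17% and 3.51% of the old cells. Cells with none made up 6.33% and 2.20%, 10.6% and 3.85%, and 7.14% and 3.51% of the newborn, young and old cells. The 10 genes took 4125 and 5714 CPM in the newborn, 2189 and 2601 in the young and 1934 and 3079 in the old sums, unscaled.

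Across the cells of a sum, correlations between members were weak. Spearman's rho of log2(CPM + 1) had a median over pairs of 0.07 and 0.05 in the newborn, 0.02 and 0.06 in the young and -0.06 and -0.03 in the old sums, over 45 pairs or, where Egfl6 and Tnc had no read, 28 pairs. These are descriptions over sparse counts within 1 sum, whose cells share plates and mice, and carry no p. Absolute values over 0.3 were reached by 2 and 3 pairs in the newborn, 0 and 0 in the young and 0 and 1 in the old sums. The highest, Thbs2 with Egfl6 at 0.37 in the first newborn sum, was 0.13 in the second. The lowest, Egfl6 with Nid1 at -0.32 in the second newborn sum, was 0.0018 in the first. Tnxb with Spp1 and Thbs1 with Spp1, the highest pairs of the second newborn and second old sums, rested on 4 and 1 cells with an Spp1 read. Postn with Vcan was above 0 in 6 of 6 sums with a mean of 0.11, as was Fn1 with Nid1 with a mean of 0.09. Postn with Vcan reached 0.34 in the second newborn sum, where 24 of the 27 cells with a Vcan read also had one of Postn. Of all cells of that sum 67.0% had a Postn read. In each adult sum only 1 cell had a read of both Postn and Vcan, and the value was 0.00062 in the second young sum. Thbs2 with Spp1 and Postn with Spp1 were below 0 in 6 of 6 sums, with means of -0.13 and -0.07, which rest on 1 to 6 cells with an Spp1 read per sum.

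**Figure D5:**
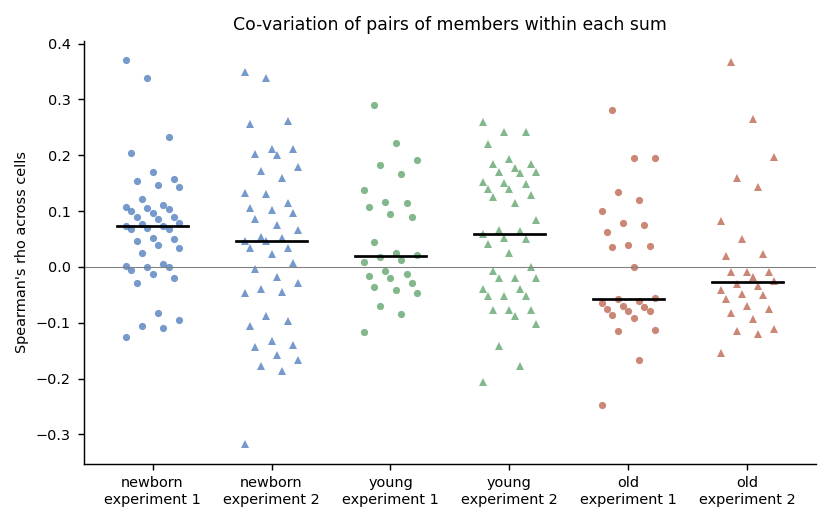
Spearman's rho (vertical axis) of each pair of members across the cells of a sum, for the 6 sums; points are pairs and bars medians. Medians lie between -0.06 and 0.07, and few pairs pass 0.3 in size.

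Genes outside the set were ranked by their likeness to each member. The likeness was the mean Spearman's rho over the sums in which a member was read in at least 20% of cells, against 3030 genes in newborn sums or 2052 genes in all 6 sums. Each value is the highest of that many genes, so the weak ones are no finding. In newborn cells Vcan was nearest to Dlk1 (0.34), Igf2 (0.30) and Pcolce (0.27). Egfl6 was nearest to C1qtnf3 (0.34) and Col12a1 (0.33), and Postn with Spon2 (0.30), Mfap4 (0.30) and Cd55 (0.27). Thbs1 was nearest to Vmp1 (0.32), Zfp36 (0.30) and Btg2 (0.29), of which Zfp36 and Btg2 are immediate-early response genes. Nid1 was nearest to Pfn1 (0.33), Aktip (0.29) and Fhl1 (0.28). Tnc had no close companion, with Insig1 (0.21), Serping1 (0.21) and Pigb (0.20) the nearest. Over all 6 sums Thbs2 was nearest to C1qtnf3 (0.31, -0.03 to 0.67 among the sums), Ccdc80 (0.30, 0.0022 to 0.62) and Col1a2 (0.28, -0.15 to 0.70). For Fn1 the nearest were Fstl1 (0.20), Tmed3 (0.18) and Mgst1 (0.18).

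Related glycoproteins outside the set moved both ways. Of 50 listed, 39 were tested, with 2 called higher and 1 lower in young against newborn cells and 2 higher and 2 lower in old against newborn cells. DESeq2 called 17 in each of these comparisons. With the experiment as a block 1 was called in young against newborn cells (Tgfbi) and 4 in old against newborn cells, while Aebp1 and Ccn1 were at adjusted p = 0.0505 and 0.0549 in young against newborn cells. The median log2 fold change of the 39 was 0.31 in young against newborn and -0.04 in old against newborn cells. Tgfbi, a fasciclin-domain relative of periostin, had 1308 and 1420 CPM in the young and 122 and 153 CPM in the newborn sums (log2 fold change 3.31, SE 0.22, adjusted p = 0.010). Aebp1, which encodes a collagen-binding protein, had 613 and 458 CPM in the young and 32.9 and 38.9 CPM in the newborn sums (3.90, SE 0.27, adjusted p = 0.013). Both also rose in old against newborn cells, to 930 and 1005 CPM for Tgfbi and 639 and 546 CPM for Aebp1. Ccn1, an integrin-binding matricellular protein, fell to 1268 and 1486 CPM in the young and 805 and 839 CPM in the old sums, against 5506 and 5068 CPM in the newborn sums (adjusted p = 0.024 and 0.011). Sparc, a collagen-binding matricellular protein, fell in old sums to 2373 and 2221 CPM, against 9153 and 10709 CPM in the newborn sums (-2.11, SE 0.16, adjusted p = 0.016). Young sums held 13256 and 13958 CPM of Sparc, and old against young cells did not pass (-2.57, SE 0.17, adjusted p = 0.128). No call was made in old against young cells by edgeR, where 7 of the 39 had an unadjusted p under 0.05 and DESeq2 called 7. Leaving out 1 sum ended each call of Tgfbi, Aebp1, Ccn1 and Sparc in at least 5 of 6 fits. Spon2, among the 4 highest of the list per kilobase, had 207 and 168 CPM in the newborn, 1094 and 745 CPM in the young and 1113 and 539 CPM in the old sums without passing.

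Of 28 receptors listed, 25 were tested and 1 was called, in young against newborn cells, where DESeq2 called 7. In old against newborn and old against young cells edgeR called 0, with 8 and 1 at an unadjusted p under 0.05, and DESeq2 called 9 and 2. Itgb5, the beta subunit that pairs with integrin alpha V, had 195 and 185 CPM in the young and 43.5 and 50.3 CPM in the newborn sums (2.02, SE 0.24, adjusted p = 0.046), and old sums held 119 and 129 CPM (old against newborn 1.40, adjusted p = 0.090). In young against newborn cells the adjusted p of Itgb5 was 0.148 to 0.241 without any 1 sum and 0.0932 with the experiment as a block. The receptors highest per kilobase were Sdc4, Cd47, Sdc2 and Itgb1, none of which passed. Cd47, the thrombospondin receptor, had 271 and 331 CPM in the newborn, 652 and 824 CPM in the young and 659 and 992 CPM in the old sums (young against newborn 1.30, SE 0.29, adjusted p = 0.184). Itgb1, the beta subunit of the fibronectin receptor, had 304 and 355 CPM in the newborn, 169 and 254 CPM in the young and 285 and 192 CPM in the old sums. Sdc4, a syndecan that binds fibronectin, had 147 and 122 CPM in the newborn, 366 and 293 CPM in the young and 361 and 235 CPM in the old sums. Sdc2 had 291 and 239 CPM in the newborn, 289 and 404 CPM in the young and 247 and 231 CPM in the old sums.

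Markers of other cells also differed between the sums. The dermal papilla list summed to 117 and 90.7 CPM in the newborn sums and to at most 5.63 CPM in adult sums, with 2 of its 4 genes at 0 throughout. Rspo3 alone had 113 and 87.3 CPM in the newborn sums. The pericyte and smooth muscle list was at 98.8 CPM in the second newborn sum, where Postn was highest, against 14.7 CPM in the first. Nearly all of this was Acta2, with 94.7 and 14.7 CPM. Des, Notch3 and Myh11 had 2.92, 1.13 and 0.056 CPM in the second newborn sum and 0 in the first. Rgs5 was at 0 throughout, and Des was highest in the second young sum (11.4 CPM). The macrophage list was at 170 CPM in the first young sum and at most 44.7 CPM elsewhere. Csf1r alone had 160 and 36.7 CPM in the young sums, while Adgre1 and Mrc1 were at 0 throughout. The endothelial list, with 2 of its 4 genes at 0 throughout, was at 23.5 and 5.64 CPM in the newborn sums and between 41.3 and 76.7 CPM in adult sums. Its rise came from Plvap, whose mean was 8.88 CPM at the newborn age, 58.2 CPM at the young age and 58.4 CPM at the old age. Pecam1 went the other way, with 11.4 CPM in the first newborn sum, 1.60 CPM in the second young sum and 0 elsewhere. The keratinocyte list was at 33.7 and 18.9 CPM in the newborn sums and between 43.6 and 70.9 CPM in adult sums. Most of its adult level was Krt10, whose mean was 19.1 CPM at the newborn age, 45.5 CPM at the young age and 58.5 CPM at the old age. Krt5, Krt1 and Epcam went the other way, with reads in newborn sums and 0 in every adult sum. Krt14 had 11.1 CPM in the first old sum and 0 in the other adult sums. The melanocyte list was at 4.52 and 7.41 CPM in the newborn sums and at most 0.22 CPM in adult sums. The part of these lists in the members' levels was not tested.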

How the data were processed

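The deposited files hold raw read counts per gene and cell in 1 table per plate, made by the authors from Smart-seq2 libraries. The submitters' processing notes name the build GRCm38 and FastQC, while no aligner, counting program or strand setting is named in the sources used here. Of the nonzero values 75.2% were even; whether both mates of a read pair were counted is not stated, and intervals and floors cover counting error only. Of 1049 labelled columns 5 held no value. In 2 pairs of tables, wells correlated at a median of 0.994, so such a pair was treated as 2 runs of 1 plate and added (183 wells), leaving 861 wells on 9 plates.

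Cells with at least 50000 reads, at least 1000 genes and at most 25% mitochondrial reads were kept and added per age and experiment. Symbols and coordinates came from GENCODE M21 (GRCm38). The 6 sums were tested with edgeR 4.0.16 in R 4.3.3 (TMM, filterByExpr, robust quasi-likelihood, age as the only term, 3 residual degrees of freedom); a standard error is the log2 fold change over the square root of F. Alternatives used DESeq2 1.42.0 and limma 3.58.1. The fit was also run on simulated sums with known changes, the outcome of which is not reported here. The experiment is the labelled batch and pairs the sums of the ages; their deviations from the age means correlated at -0.0026 to 0.0099. The fit with it as a block is given beside calls it changes.

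Shares of cells were taken after thinning each cell to 100000 reads. All 10 members are named. Of 50 related glycoproteins and 28 receptors, up to 8 genes per comparison with the smallest p among those called were named, and the 4 highest per kilobase where fewer than 4 were called. For likeness, the 3 genes with the highest mean Spearman's rho per member were taken. The members, lists and tests were chosen with earlier results of these data known. No doublet caller was run.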

Additional observations from a re-analysis of the deposited data

Results flagged for a closer look

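Reads of the members were also found in wells outside the comparisons. Of the 126 wells left out by the cell filter, 32 (25.4%) had a read of at least 1 of the 10 genes, with 15608 reads in all, against 95.4% of the kept wells. The left-out wells held a median of 125290 reads, and 17 of them had a read of Fn1. No control wells without a cell are named in the labels, so the level to expect in such a well is not known.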

How the results depend on the processing

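Counts of genes called moved by more than 1.5 times under several alternatives. In young against newborn cells edgeR's 130 genes became 2358 with DESeq2, 268 with cells thinned, 491 with only genes read in 10% of the cells of an age, 1092 with limma on the mean log2(CPM + 1) per cell and 25 with the experiment as a replicate block. In old against newborn cells the 156 became 2828, 312, 547, 1414 and 51 under the same alternatives. In old against young cells the 0 became 1047 with DESeq2, 9 with genes read in 10% of cells and 2 with no filter on low counts. Leaving out 1 sum gave 0 to 42, 0 to 47 and 0 genes.

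The 2 members called in young against newborn cells became 6 with DESeq2 and 6 with limma, and 0 under the block. In old against newborn cells they became 7 with DESeq2, 4 with genes read in 10% of cells, 6 with limma and 0 under the block. In old against young cells DESeq2 called 1. Leaving out 1 sum left 0 members called in each comparison. The cause of these moves was not tested, beyond the fewer sums or genes in the fit.

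Several directions turned. Under limma, Thbs2 was at 0.99 (young against newborn) and 0.66 (old against newborn) and Spp1, 3.83 in edgeR's test, at -0.088 (young against newborn). In old against young cells Fn1 turned to -0.023 with cells thinned and -0.22 under limma, Thbs1 to 0.010 with the first run only, 0.094 under the block and 0.25 without the cell with most reads, and Thbs2 and Tnxb to 0.0082 and 0.0090 with the first run only. Leaving out 1 sum, values in old against young cells ranged between -0.65 and 0.54 for Fn1, -0.78 and 0.42 for Tnxb, -0.82 and 1.43 for Thbs1, -0.38 and 0.17 for Thbs2, -0.32 and 3.25 for Spp1 and -0.96 and 0.021 for Nid1. Thbs2 ranged between -0.52 and 0.093 in young against newborn and -0.62 and 0.025 in old against newborn cells. With no change of direction, young against newborn values ranged between -3.70 and -1.99 for Postn, -3.51 and -1.32 for Thbs1, -17.14 (no young reads left) and -3.54 for Tnc and 1.15 and 5.13 for Spp1. Under the block the adjusted p of Egfl6 was 0.136 and 0.115 and that of Tnxb 0.115 and 0.107 in young and old against newborn cells. Of the other calls named, the block ended those of Aebp1, Ccn1 and Itgb5 in young against newborn cells and no other.

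The median share of cells with a read, 11.5% over 60 values, was 11.5% to 12.5% under other depths and a stricter mitochondrial limit, and the median pair correlation was 0.03 to 0.04.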
